A study of Mus musculus with 8 samples.

Results

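Open chromatin regions of NIH3T3 cells that all 4 ATAC-seq libraries shared, but that at least one library split into several separate peaks, numbered 4402. They were 16.1% (Wilson 95% interval 15.7 to 16.6%) of the 27299 autosomal regions that had a peak in every library and a merged width under 8000 bp. Peaks of the 4 lists sharing at least 1 bp were merged into 45915 regions, and a shared region was kept where a library had 2 or more peaks in it. The split regions were thus chosen by the number of peaks per library, so the counts of peaks, gaps and bridged sites below describe them and are given without a test. Few were split throughout: 54.9% were split in 1 library, 27.0% in 2, 16.4% in 3 and 1.75% (77 regions) in all 4.

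NIH3T3 is an established fibroblast line from mouse embryos, grown in medium with newborn calf serum. The tested cells were cultured for 24 h on G2, in 2 libraries, and were set against cells cultured for 24 h on G128, also in 2 libraries. G2 and G128 are not explained in the labels. The series concerns adhesion and chromatin on hydrogels of polyvinyl alcohol and gelatin, and both groups are the same line with no other treatment named. The labels do not tell whether replicates were separate cultures, and the spread behind each p-value may therefore be only technical.

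In ATAC-seq the Tn5 transposase inserts adapters where DNA is exposed, so reads pile up at promoters and enhancers and thin out over nucleosomes. A long accessible element often carries several such pileups, with a nucleosome or a weakly exposed stretch between them. A peak caller writes 1 peak where the signal stays above its threshold and several where it drops for long enough, so the same element can be listed fused or separate. What lies at the positions given here was not annotated, since no annotation or sequence of the genome build of the files, mm9, was used.

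Depth was read from the mean of the caller's background, recovered from the steps of the p-values in each list. It was 1.10 overlapping intervals per bp in G2 replicate 1 and 1.37 in G2 replicate 2, against 1.05 and 1.41 in the G128 replicates. It averaged 1.23 ± 0.190 over the G2 lists and 1.23 ± 0.253 over the G128 lists (SD, n = 2 per culture), so this depth hardly differed between the culture means but did between replicates. The lists held 42358 and 41585 peaks on G2, against 32540 and 37695 on G128, so list length did follow the culture. The lowest summit listed was 18.2 and 18.3 times the background mean on G2, against 19.0 and 18.4 times on G128.

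The split regions were wide and strong. A split region must hold at least 2 peaks of a library and the gap between them, so part of its width follows from the rule. Its summit in a library is the highest of all its peaks there, so more peaks and more width can also raise it. Over regions, the summit averaged over libraries had a median of 75.8 times the background in them, against 58.1 times in the shared regions with 1 peak in every library. Their median width was 1073 bp, against 560 bp in the 22897 shared autosomal regions with 1 peak in every library. Split regions made up 2.88% of shared regions under 500 bp and 88.3% of those of 3000 bp or more. They ranged in width from 286 to 7025 bp. The 3 autosomal regions with several peaks above the limit of 8000 bp measured 9061, 11149 and 38495 bp, and a further 82 split shared regions lay on X or Y. The highest number of peaks a library had in a region was 2 in 3905 regions, 3 in 430, 4 in 55, 5 in 11 and 6 in 1. Their frequency varied little over the autosomes, between 14.8 per 100 shared regions on chromosome 15 and 19.4 per 100 on chromosome 3.

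Each place where a library had a gap was followed in the other libraries. Gaps between consecutive peaks of a library numbered 8019, and overlapping gaps were joined into 5202 gap sites. At a site a library was called open if it had its own gap there, bridged if one of its peaks spanned the whole site, and one-sided if its peaks lay on one side of the site only. Of the split regions, 3745 had 1 gap site, 540 had 2, 95 had 3, 18 had 4 and 4 had 5. By the rule some library must cover a gap, or the flanking peaks would not merge into 1 region. A single peak bridged 5143 of the sites in some library, and 59 were joined only through overlapping peaks of different libraries.

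At the gap sites of split regions, fusion was far more frequent on G2 than on G128. Within each culture it was more frequent in replicate 2, the deeper library. G2 replicate 1 bridged 55.5% of the 5202 gap sites and G2 replicate 2 bridged 82.9%, against 14.0% and 46.5% in the G128 replicates. Wilson 95% intervals, which cover counting error only, were 54.1 to 56.8% and 81.8 to 83.9% on G2, against 13.1 to 15.0% and 45.1 to 47.8% on G128. Both G2 libraries thus lay above both G128 libraries, but G2 replicate 1 exceeded G128 replicate 2 by only 9.03 percentage points. It averaged 69.2 ± 19.4% over the G2 lists and 30.2 ± 22.9% over the G128 lists (SD, n = 2 per culture), a difference of 39.0 points. Replicate 2 exceeded replicate 1 by 27.4 points on G2 and by 32.4 points on G128.

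Open gaps were 36.7% and 14.7% of the sites in G2 replicates 1 and 2, against 56.3% and 45.3% in G128 replicates 1 and 2. A peak on one side only was found at 7.80% and 2.42% of the sites on G2, against 29.7% and 8.21% on G128. G128 replicate 1 stood apart here: a site it did not bridge often lacked one of the flanking peaks rather than showing both. Among the sites a library had either open or bridged, 60.2% and 84.9% were bridged on G2, against 19.9% and 50.6% on G128, and the order of the libraries was the same.

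**Figure D1:**
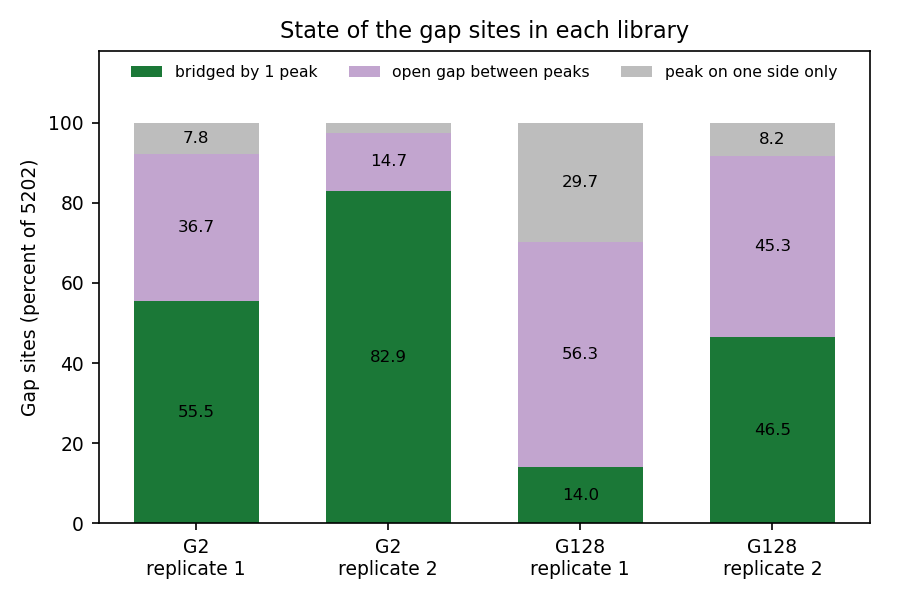
Share of the 5202 gap sites (percent, y axis) that each of the 4 libraries bridged with 1 peak (green), left open between separate peaks (purple) or had a peak on one side of only (grey). The green part is 82.9% in G2 replicate 2 and 14.0% in G128 replicate 1, with G2 replicate 1 (55.5%) and G128 replicate 2 (46.5%) close to each other.

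Counted by region, separate peaks were called in 1771 split regions (40.2%) in G2 replicate 1 and in 735 (16.7%) in G2 replicate 2, against 2577 (58.5%) and 2181 (49.5%) in the G128 replicates. The share averaged 28.5 ± 16.6% over the G2 lists and 54.0 ± 6.36% over the G128 lists (SD, n = 2 per culture). The difference of the means was -25.6 points, while replicate 2 minus replicate 1 was -23.5 points on G2 and -9.00 points on G128. In 472 split regions (10.7%) both G2 libraries had fewer peaks than both G128 libraries, where 1.73% of the 27299 shared autosomal regions did. In 50 (1.14%) both G2 libraries had more, against 0.183% of the shared regions. Only split regions can differ in this number, so these shares follow from the rule.

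The difference kept its direction without each library, with regions and gap sites derived again from the remaining 3. Without G128 replicate 1, the shallowest library and the shortest list, 42.3% and 78.1% of the sites were bridged on G2, against 29.7% in G128 replicate 2. Without G2 replicate 2, which bridged most, the shares were 70.6% in G2 replicate 1, against 17.2% and 58.4% on G128. The difference was 30.5 points in the first case and 32.8 in the second, 58.6 without G2 replicate 1 and 60.4 without G128 replicate 2.

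The 6 strongest regions fused on G2 and separate on G128 show what a gap looked like. There were 415 regions with 1 fused peak in both G2 libraries and separate peaks in both G128 libraries. The strongest, chr11:105945072-105946898, was a single peak of 1793 and 1807 bp on G2. On G128 a gap of 115 bp in replicate 1 and of 116 bp in replicate 2 cut off a right flank of 664 and 666 bp. Its highest summit was 657 and 713 times the background on G2, against 515 and 565 times on G128, and the flank that G128 cut off had summits of 56.0 and 51.7 times.

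At chr5:136019868-136021821 the G2 libraries had 1 peak of 1907 and 1952 bp, with summits of 575 and 551 times the background. The G128 libraries had summits of 407 and 499 times and set off a left peak of 137 and 198 bp, 24.7 and 26.2 times the background high, by gaps of 501 bp in replicate 1 and 110 bp in replicate 2. At chr7:63305054-63306135 the peak cut off on G128 was 137 and 189 bp wide, behind gaps of 212 and 162 bp, and had summits of 25.6 and 26.2 times. In both regions the cut-off peak was low, beside a main peak many times higher. The lowest summits listed on G128 were 19.0 and 18.4 times.

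The region chr1:133421663-133425033 was 1 peak on G2 and had 3 and 2 peaks on G128, with gaps of 322 and 438 bp in G128 replicate 1 and of 145 bp in G128 replicate 2. In chr18:36718957-36721315 the gap was 230 bp in G128 replicate 1 and 109 bp in replicate 2, and in chr7:17459536-17461148 it was 248 and 136 bp. In 5 of these 6 regions the gap of G128 replicate 1, the shallower library, was the wider one, by its widest gap where it had several. The exception was the strongest region, where the 2 gaps differed by 1 bp.

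The opposite kind was rare. Only 15 regions had separate peaks in both G2 libraries and 1 fused peak in both G128 libraries, and at just 10 gap sites was the same site open in both G2 and bridged in both G128 libraries. Of the 6 strongest regions of this kind, 2 had a gap site open in both G2 libraries. At chr11:94901886-94903230 the G2 gaps were 182 and 131 bp, beside left peaks of 25.5 and 23.4 times the background, and the G128 libraries had 1 peak of 896 and 1079 bp. The highest summits there were 344 and 328 times the background on G2, against 258 and 253 times on G128.

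The other was chr11:3056374-3060359, close to the start of chromosome 11. Gaps of 367 and 324 bp separated peaks with summits of 45.5 and 42.4 times the background from the main peak on G2, where G128 had single peaks of 3897 and 3732 bp. Main summits were 274 and 286 times the background on G2, against 241 and 277 times on G128. In chr19:41985978-41987512, chr19:5037889-5039927, chr1:62752166-62754110 and chr12:25392186-25393990 the 2 G2 libraries were split at different places, by gaps of 107 to 129 bp. The agreement of both G2 libraries in the number of peaks did not mean the same gap there.

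**Figure D2:**
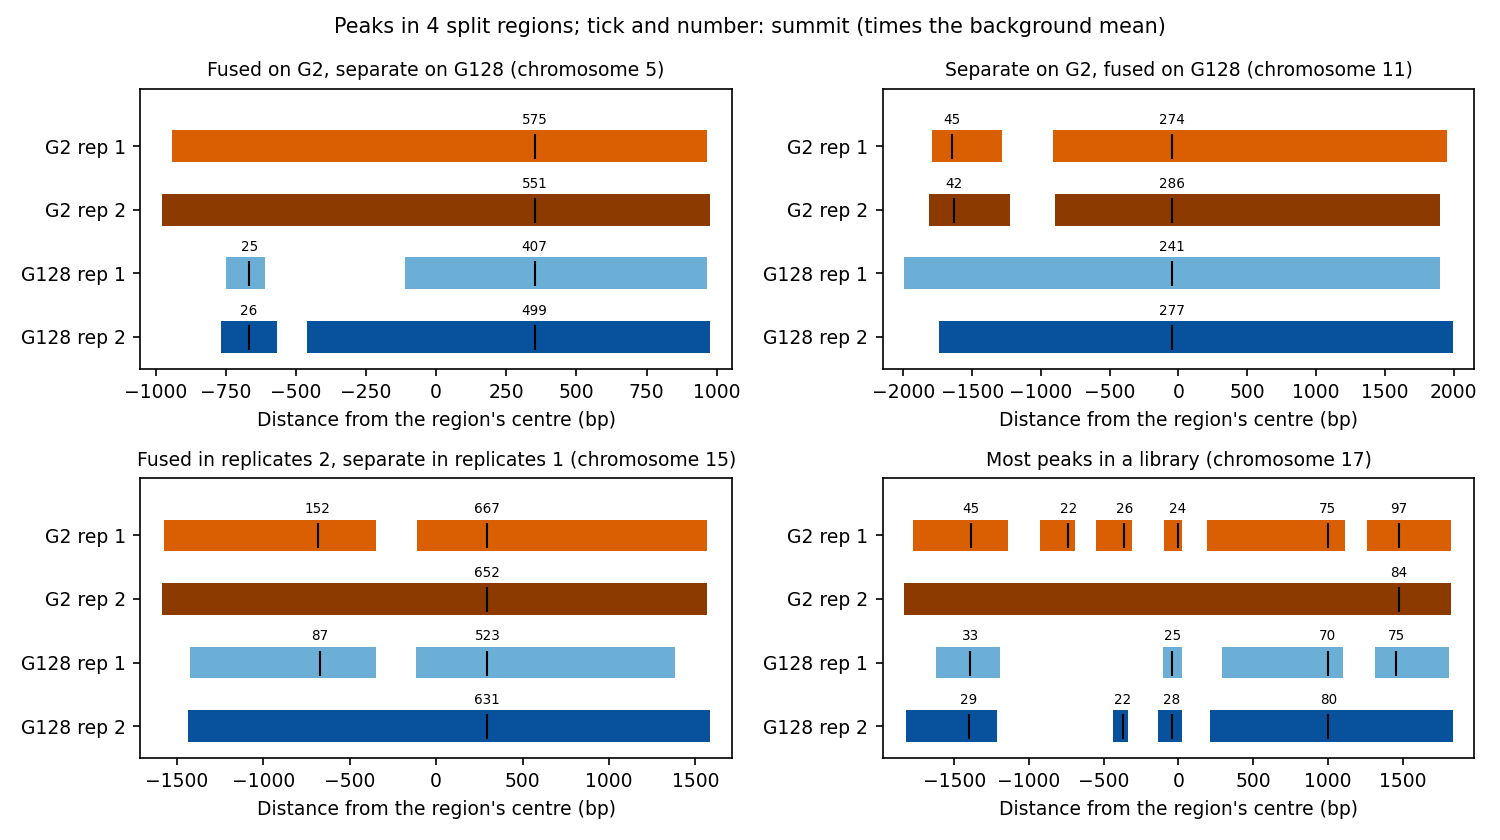
Peaks as called in each library (bars, rows with G2 above G128) in 4 split regions, by distance from the region's centre in bp; ticks mark summits and numbers give their height as times the background mean. The chromosome 5 region is fused on G2 and split on G128, the chromosome 11 region the reverse, the chromosome 15 region is fused in both replicates 2, and the chromosome 17 region has 6 peaks in G2 replicate 1 and 1 in G2 replicate 2.

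Fusion followed the replicate number too. In 283 regions both replicates 2 had 1 fused peak and both replicates 1 had separate peaks, against 16 regions with the reverse. The strongest of the 283 was chr15:102346627-102349799, 1 peak of 3154 bp in G2 replicate 2 and of 3022 bp in G128 replicate 2, with gaps of 237 bp in G2 replicate 1 and 232 bp in G128 replicate 1 at nearly the same place. In chr19:46471113-46472387 the gaps of the replicates 1 were 311 bp on G2 and 306 bp on G128, and in chr10:79722544-79724941 they were 192 and 414 bp. The peak cut off in chr19:46471113-46472387 had its summit at 27.3 times the background on G2 (replicate 1), against 27.5 times on G128 (replicate 1).

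The 3 strongest of the 16 reverse regions had short gaps. At chr6:124763246-124764770 the replicates 2 had gaps of 104 bp on G2 and 102 bp on G128. At chr19:4212851-4215410 they were 132 bp on G2 and 173 bp on G128, and at chr16:91043790-91045184 101 and 125 bp. In these last 2 regions the gaps of the 2 cultures lay at different places.

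Set side by side, the counts that followed the culture and the replicate number were above those of the crossed patterns. These counts depend on the bridged shares of the single libraries already given. One crossed pattern needs G128 replicate 1 bridged (14.0% of all sites), and the other needs G2 replicate 2 open (14.7%). Whether any pattern exceeded what those shares give was not tested. A gap site was bridged in both G2 and open in both G128 libraries 443 times, in 431 regions, and the reverse 10 times. It was bridged in both replicates 2 and open in both replicates 1 294 times, and the reverse 13 times. The crossed patterns, which follow neither, held 54 sites bridged in G2 replicate 2 and G128 replicate 1 and 49 sites bridged in G2 replicate 1 and G128 replicate 2, with the other two libraries open.

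**Figure D3:**
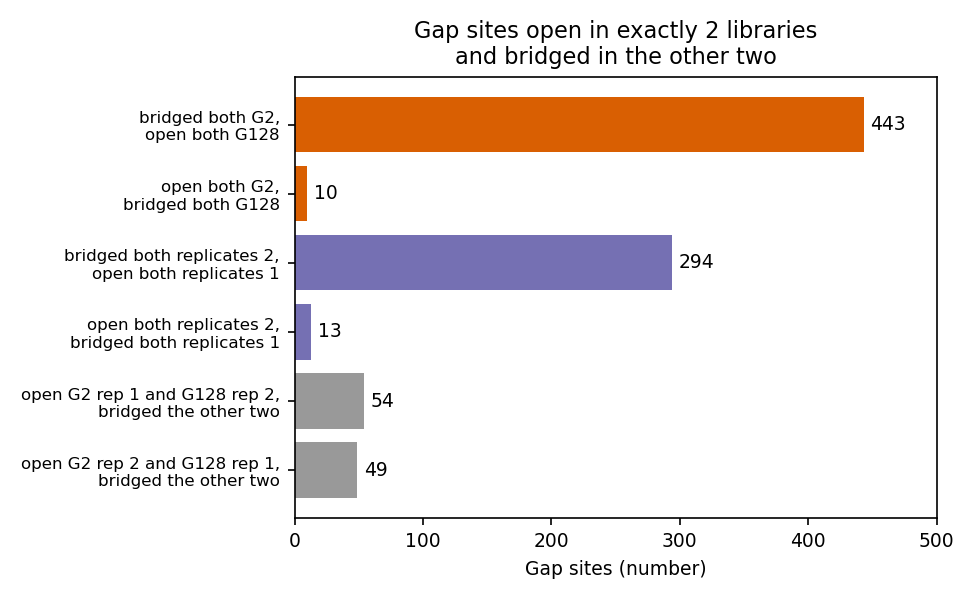
Number of gap sites (x axis) open in exactly 2 libraries and bridged in the other two, for the patterns that follow the culture (orange), the replicate number (purple) or neither (grey). The orange 443 and the purple 294 exceed the crossed 54 and 49, and the reverse patterns hold 10 and 13.

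Many sites set 1 library apart from the other 3, and a further 1864 (35.8%) had a peak on one side only in at least 1 library. The largest class, 1239 sites (23.8%), was open in G128 replicate 1 and bridged elsewhere, while 294 sites were open in G128 replicate 2 alone, 191 in G2 replicate 1 alone and 43 in G2 replicate 2 alone. Conversely, 437 sites were bridged in G2 replicate 2 and open in the other 3 libraries, 114 were bridged in G2 replicate 1 alone, 101 in G128 replicate 2 alone and 20 in G128 replicate 1 alone. In both counts G2 replicate 2 and G128 replicate 1 stood at opposite ends. Only 36 sites were open in all 4 libraries, with a median width of 520 bp. A site joins overlapping gaps, so the gaps of different libraries in it need not overlap each other, and joining adds to the width.

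Gaps were short, and many lay just past the joining distance of the lists. No 2 peaks of any list were closer than 101 bp, which set the lower end of every gap. The median gap was 127 bp in G2 replicate 1 and 117 bp in G2 replicate 2, against 136 and 126 bp in the G128 replicates. These medians averaged 122 ± 7.07 bp over the G2 lists and 131 ± 7.07 bp over the G128 lists (SD, n = 2 per culture), and the difference was -9.00 bp. Gaps of at most 110 bp were 25.7% and 34.7% of all gaps on G2, against 20.1% and 25.6% on G128. The widest gaps were 584 and 560 bp on G2, against 1092 and 867 bp on G128.

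**Figure D4:**
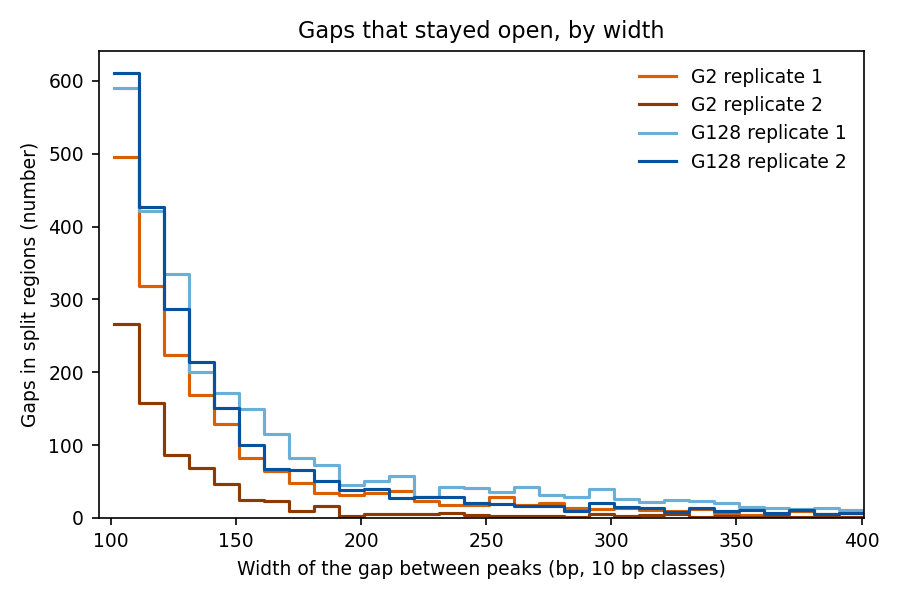
Number of open gaps in split regions (y axis) by width in 10 bp classes (x axis, 101 to 400 bp), one line per library; wider gaps are not drawn. All 4 lines start at their maximum at 101 bp and fall steeply, and G2 replicate 2 has the fewest gaps (766 in all widths, against 2937 in G128 replicate 1).

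Sites over 300 bp were bridged less often than the narrowest in all 4 libraries, and the drop was smallest in G2 replicate 2. A site joins the overlapping gaps of all libraries and counts as bridged only if spanned whole. Part of the drop therefore follows from the definition. Of the 1123 sites of 101 to 110 bp, G2 replicates 1 and 2 bridged 67.9% and 85.4%, against 21.8% and 56.6% in G128 replicates 1 and 2. Of the 538 sites over 300 bp, they bridged 29.9% and 74.3%, against 2.97% and 29.7%. The 2 libraries of intermediate share, G2 replicate 1 and G128 replicate 2, hardly differed at these wide sites. When peaks of one list less than 200 bp apart were joined, 2102 split regions remained, and 50.5% and 84.9% of their gap sites were bridged on G2, against 11.2% and 47.9% on G128.

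The 2 peaks beside a gap usually differed in height. The lower of them, low by choice, had a median summit of 29.1 and 27.8 times the background in the G2 lists, against 28.5 and 27.6 times in the G128 lists. The lowest summits listed were 18.2 and 18.3 times on G2, against 19.0 and 18.4 times on G128. The higher of the 2 had a median of 82.8 and 77.8 times on G2, against 62.6 and 64.5 times on G128. The median ratio of the lower to the higher was 0.438 and 0.442 on G2, against 0.548 and 0.5 on G128. Summits on either side of a gap lay a median of 574 and 533 bp apart on G2, against 526 and 489 bp on G128.

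Which side of the gap held the highest summit was stable. Among the 3745 regions with 1 gap site, the highest summit lay on the same side in all 4 libraries in 3233 (86.3%). The 2 G2 libraries had it on the same side in 93.6% and the 2 G128 libraries in 91.8%. Over the 4 libraries its position ranged over a median of 45 bp in split regions and 39 bp in the other shared regions.

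Whether fusion went with the culture or with depth was examined in libraries of like depth. Between G2 replicate 1 and G128 replicate 1, whose background means were 1.10 and 1.05, 1927 sites were bridged on G2 and open on G128, and 312 the reverse. Between G2 replicate 2 and G128 replicate 2, with 1.37 and 1.41, the counts were 2029 and 384, although G128 was the deeper. Within a culture, 1634 sites were bridged in G2 replicate 2 and open in G2 replicate 1, and 440 the reverse, while G128 replicate 2 against replicate 1 gave 1751 and 426. For G2 replicate 1 against the deeper G128 replicate 2 the counts came closest, at 1332 and 891.

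Across the 4 libraries the bridged share was ordered neither by the background mean nor by the length of the list. G128 replicate 2 had the highest background mean and bridged fewer sites than both G2 libraries. G2 replicate 1 had the longest list and bridged fewer sites than G2 replicate 2. The order of the bridged shares was that of the median summit in the other shared regions, which was 64.6 and 65.0 times the background in G2 replicates 1 and 2, against 48.4 and 55.3 times in G128 replicates 1 and 2. The G2 medians were thus nearly equal, while the G2 bridged shares were 55.5% and 82.9%. The length covered by peaks had the same order, at 20.3 and 22.2 Mb on G2, against 15.5 and 18.9 Mb on G128. Whether either measure bears on fusion was not tested. With 4 libraries no correlation was computed.

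**Figure D5:**
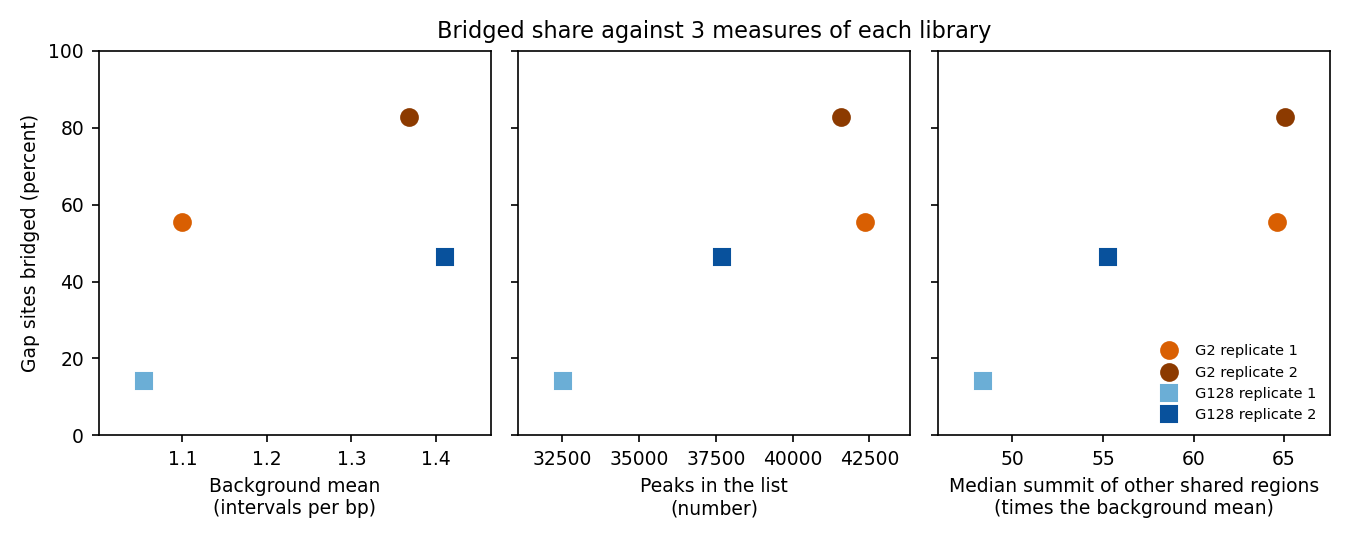
Share of gap sites bridged (percent, y axis) in each library against its background mean, the number of peaks in its list and its median summit in the shared regions with 1 peak in every library (x axes). At like background means the G2 points (circles) lie above the G128 points (squares), at 55.5% above 14.0% and at 82.9% above 46.5%.

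With lists of equal length, the 32540 strongest peaks by signal from each, 3316 split regions and 3870 gap sites were found. Of these sites 62.4% and 86.7% were bridged in G2 replicates 1 and 2, against 11.99% and 50.4% in G128 replicates 1 and 2, a difference of 43.4 points. The selection left the list of G128 replicate 1 whole and took the weakest peaks, among them low flanks of gaps, from the other 3. Separate peaks were then called in 30.6% and 11.5% of the split regions on G2, against 76.3% and 46.2% on G128, so the part of list length in the difference was not isolated. With only peaks at least 30 times the background high, the shares were 55.1% and 85.2% on G2, against 14.9% and 47.9% on G128.

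Summits stood higher on G2 in the same regions. The median summit of the split regions was 83.7 and 88.4 times the background in G2 replicates 1 and 2, against 61.7 and 71.6 times in G128 replicates 1 and 2. It averaged 86.0 ± 3.34 times over the G2 lists and 66.6 ± 7.01 times over the G128 lists (SD, n = 2 per culture), at 1.29 times the G128 level (two-sided exact permutation p = 0.333, the smallest that 6 assignments allow), while the other shared regions had a ratio of 1.25. Both G2 summits exceeded both G128 summits in 3151 split regions (71.6%), against 67.6% of all shared autosomal regions, and both lay below in 89 (2.02%), against 2.78%.

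The sites were therefore compared where the summits were alike, a comparison chosen after the data were seen. Where the highest summits of a region lay within 10% of each other as times the background, 166 of 531 sites were bridged in G2 replicate 1 and open in G128 replicate 1, and 45 the reverse. For the replicates 2 it was 381 and 133 of 1223 sites. Sites bridged on G2 and open on G128 were thus 3.69 and 2.86 times as many as the reverse, against 6.18 and 5.28 times over all sites. Between replicates 2 and 1 the counts were 844 and 204 of 2642 sites on G2 and 387 and 133 of 1395 sites on G128. Between G2 replicate 1 and G128 replicate 2 they were nearly equal, at 284 and 267 of 1343 sites.

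Where the G128 summit was over 10% higher, the excess of sites bridged on G2 was small or turned round. Between the replicates 1, 46 of 199 such sites were bridged on G2 and open on G128 and 33 the reverse, and between the replicates 2 it was 54 and 61 of 304. G2 replicate 1 against G128 replicate 2 gave 66 and 168 of 581 sites, and G2 replicate 2 against G128 replicate 1 gave 19 and 29 of 113. Of these 4 pairs only that of the replicates 1 kept more sites bridged on G2.

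Where instead the whole-number pileups at the summits lay within 10%, the excess of replicate 2 was smaller on G2 and turned round on G128. Then 117 of 392 sites were bridged in G2 replicate 1 and open in G128 replicate 1, and 35 the reverse, while 448 and 151 of 1420 were so for the replicates 2, at median ratios of the G2 to the G128 summit over the background of 0.989 and 1.05. G2 replicate 1 against G128 replicate 2 gave 548 and 265 of 1942 sites, but there the G2 summit was 1.27 times the G128 one over the background. G2 replicate 2 against G128 replicate 1 gave 8 and 8 of only 41 sites. Replicate 2 against replicate 1 gave 127 and 70 of 500 sites on G2 and 16 and 21 of 139 sites on G128. In those sites the summit of replicate 2 was lower as times the background, at a median ratio of 0.842 on G2 and 0.776 on G128. Sites are not replicates, so these counts compare the 4 libraries and not the cultures.

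Bridging was also counted in gaps taken from a list without regard to merged regions, with the same asymmetry. This comparison was also chosen after the data were seen. It is no separate check, since a peak that bridges a gap also merges the peaks beside it into 1 region. G2 replicate 1 bridged 1919 gaps of at most 500 bp of G128 replicate 1, against 1927 such gap sites in split regions. The number of short gaps in a list did not follow the culture. Autosomal gaps of at most 200 bp numbered 3266 and 3342 in the G2 lists, against 2690 and 3625 in the G128 lists. In split regions G2 replicate 2 had only 766 gaps, against 2937 in G128 replicate 1. G128 replicate 1 had 4526 autosomal gaps of at most 500 bp, of which a single peak bridged 42.4% in G2 replicate 1, 56.2% in G2 replicate 2 and 38.6% in G128 replicate 2. Of the 5918 such gaps of G128 replicate 2, 24.3% were bridged in G2 replicate 1, 36.4% in G2 replicate 2 and 7.47% in G128 replicate 1. Gaps of the G2 lists were bridged less on G128.

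Of the 5814 gaps of G2 replicate 1, 30.9% were bridged in G2 replicate 2, 16.5% in G128 replicate 2 and 5.57% in G128 replicate 1. Of the 5519 gaps of G2 replicate 2, 9.60% were bridged in G2 replicate 1, 7.85% in G128 replicate 2 and 2.43% in G128 replicate 1. For every list the order of the other libraries by bridged share was the one seen in the split regions.

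Summit differences at the 443 and 294 sites that followed the culture or the replicate number lay near those over all gap sites. At the reverse 10 and 13 sites they were smaller. On the log2 scale the summit over the background was higher on G2 by a median of 0.42 at the 443 sites bridged in both G2 and open in both G128 libraries and by 0.11 at the 10 reverse sites, against 0.37 over all 5202 sites. Replicate 2 exceeded replicate 1 by a median of 0.15 at the 294 sites bridged in both replicates 2 and open in both replicates 1. It did so by 0.04 at the 13 reverse sites, against 0.14 over all sites. Regions with fewer peaks on G2, summed over replicates, numbered 2819 (64.0%), those with more 902 (20.5%), and 681 had equal numbers.

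Summit height was tested in single regions with limma on all 27768 shared regions, after each library's median log2 summit had been subtracted. At a Benjamini-Hochberg adjusted p under 0.05 over all of these, 24 of the 4402 split regions rose on G2 (0.545%), where 0.601% of all shared regions did, and 26 fell (0.591%), where 0.864% did. These shares were near those of all shared regions. The calls depended on the fit: without a variance trend limma called 0 and 0 split regions, with 527 at an unadjusted p under 0.05. With the mean over the peaks of a region in place of its highest summit it called 47 and 13, of which 1 and 0 were among the 24 and 26. All 8 calls named below were lost under both settings. The median difference was 0.04 (log2) in split regions and 0.01 in all. Without the subtraction, which leaves in the general height difference, the median was 0.37 in split regions and 0.34 in all, and 1347 split regions were higher and 7 lower on G2. Leaving out each library gave 1 to 86 regions higher and 6 to 52 lower, so the counts depended on single libraries. They were 5 higher and 9 lower without G2 replicate 1, 1 and 6 without G2 replicate 2, 74 and 31 without G128 replicate 1, and 86 and 52 without G128 replicate 2.

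Of the 24 regions that rose, 19 had fewer peaks on G2 and 2 had more, and of the 26 that fell, 4 had fewer and 18 more. Over all split regions, 64.0% had fewer peaks on G2 and 20.5% had more. A link between summit change and number of peaks was not tested. At chr2:118345783-118346608 the summit was 106 and 122 times the background on G2, against 37.0 and 59.5 times on G128, and both G2 libraries were fused where both G128 libraries had 2 peaks. Its log2 difference was 0.95 ± 0.16 (SE, limma adjusted p = 0.000962). At chr19:45154126-45155363 the summit was 139 and 147 times on G2, against 48.4 and 79.4 times on G128, a log2 difference of 0.88 ± 0.15 (limma adjusted p = 0.000962). Here each replicate 2 had 2 peaks and each replicate 1 a single one. The call at chr2:118345783-118346608 was lost without G2 replicate 2 (limma adjusted p = 0.0564).

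The next 2 that rose were weak on G128. At chr17:71606191-71606762 summits were 53.7 and 54.8 times the background on G2, against 22.8 and 26.9 times on G128 (0.80 ± 0.20, limma adjusted p = 0.0262). At chr8:122267170-122267815 they were 43.7 and 62.8 times on G2, against 23.7 and 24.8 times on G128 (0.78 ± 0.21, limma adjusted p = 0.0387). In both, G128 replicate 2 alone had 2 peaks. The calls were lost without either G2 library at the first and without G2 replicate 2 or G128 replicate 2 at the second.

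The region that fell most was chr1:194571748-194572699, with summits of 25.5 and 26.3 times the background on G2, against 45.5 and 58.8 times on G128, a log2 difference of -1.33 ± 0.20 (limma adjusted p = 0.000152). At chr13:23504214-23504904 they were 30.02 and 25.6 times on G2, against 50.3 and 53.1 times on G128 (-1.23 ± 0.20, limma adjusted p = 0.000341). In both regions G2 replicate 2, which fused most elsewhere, was the only library with 2 peaks. The same held at chr1:135846666-135847436, where summits were 35.5 and 33.6 times on G2, against 56.9 and 54.6 times on G128 (-1.02 ± 0.19, limma adjusted p = 0.00168).

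At chr12:75904876-75905517 summits were 41.8 and 37.3 times on G2, against 74.0 and 56.0 times on G128 (-1.04 ± 0.19, limma adjusted p = 0.00162), and each culture had 1 library with 2 peaks. This call was lost without G128 replicate 1, where the limma adjusted p was 0.0522. Of the 26 regions that fell, 6 started within the first 4 Mb of a chromosome, where 49 of the 4402 split regions lay, and none of the 24 that rose did. That position was singled out after the values were seen. Those of the 6 on chromosome 11 started close together, at 3049447, 3078947 and 3095551, so the 6 are not separate chromosome starts.

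The 6 regions with most peaks were 2033 to 3667 bp wide. The region chr17:63229040-63232706 had 6 peaks in G2 replicate 1 and 4 in each G128 library, but in G2 replicate 2 a single peak of 3658 bp. Its highest summits were 97.3 and 84.0 times the background on G2, against 74.9 and 80.1 times on G128, and it also held the widest gap of all, 1092 bp in G128 replicate 1. At chr15:64213199-64215589 the G2 libraries had 4 and 1 peaks and the G128 libraries 4 and 5. Both regions were 1 peak in G2 replicate 2 and several elsewhere.

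Other regions stayed split throughout. The G2 libraries had 4 and 4 peaks in chr5:125884964-125887238, against 5 and 2 on G128. They had 4 and 3 in chr7:17366272-17369696, against 3 and 3 on G128, and 4 and 2 in chr18:4920268-4922959, against 4 and 3. In chr16:85172331-85174363 they had 2 and 2, against 5 and 4 on G128. Their highest summits lay between 50.3 and 156 times the background over the 4 libraries.

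After chr17:63229040-63232706 the widest gaps also belonged to G128 replicate 1. They were 982 bp in chr4:154607720-154610270, 912 bp in chr12:112680359-112682570 and 910 bp in chr7:104727621-104729742. In chr4:154607720-154610270 G2 replicate 1 had a small peak of 229 bp within that gap, G128 replicate 2 left 775 bp of it open, and G2 replicate 2 had 1 peak of 2551 bp. In chr12:112680359-112682570 both replicates 2 had 1 peak, of 2161 bp on G2 and 2150 bp on G128. In chr7:104727621-104729742 all 4 libraries had 2 peaks, with gaps of 165 and 146 bp on G2, against 910 and 202 bp on G128. The other 3 gaps lay inside the widest one, but the 2 G2 gaps did not overlap each other.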

How the data were processed

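ATAC-seq peak lists of 2 G2 and 2 G128 libraries were used, grouped by sample title. The 4 RNA samples are not analysed here. Bowtie2 2.2.5, SAMtools 1.7 and Genrich 0.5 are among the tools named, with the build mm9, per the submitters' processing notes. Their settings are not given in the sources used here. For each peak the deposited lists give the summit offset, the −log10 of the p-value and of the q-value, a signal and a score beside the position. The signal is the authors' own and served only to rank peaks within a list; the deposited score was not used.

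Background mean and whole-number summit pileups were recovered from the first 100 steps of the deposited −log10 p-values under a log-normal background. Pileups came within 0.00179 of a whole number. A summit is given as times the background mean. Intervals are Wilson intervals at the 95% level and cover counting error only. Groups were compared by two-sided exact permutation tests. Summits were tested with limma 3.58.1 in R 4.3.3, with a variance trend, on log2 values less the median of each library. The scripts, checked on simulated data, ran in Python 3.11.15, numpy 2.4.6, scipy 1.17.1 and pandas 2.3.3.

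Named regions were the strongest 6 or 3 of each pattern of fusion, the 6 with most peaks, the 4 with the widest gap, and up to 4 called in each direction by the summit test. The regions and rules were chosen with earlier results of these data known. Positions are on mm9, as in the lists, counted from 1.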

Additional observations from a re-analysis of the deposited data

How the results depend on the processing

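The differences in bridged share, in share of regions with separate peaks and in median gap kept their direction under all alternatives tried. A replicate block is no check here, since each replicate number occurs once per culture and the differences of the means cannot change. They stayed at 39.0 points, -25.6 points and -9.00 bp. The labels do not say that the numbers pair the samples, and summit deviations of replicate 1 from its group mean correlated with r = 0.00279 between the cultures over regions. Depth and bridging were higher in replicate 2 of both cultures. Leaving out each library gave -48.5 to -24.4 points for separate peaks and -13.5 to -1.50 bp for the gap. Separate peaks differed by -40.2 points with equal lists.

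Fewer peaks or fewer libraries change the pattern counts by construction. Below, counts are sites that followed the culture (443, reverse 10), the replicate number (294, reverse 13), and the crossed patterns (54 and 49). Equal lists gave reverse counts of 5 and 7. Peaks of at least 30 times the background gave 199, 4, 163, 5, 30 and 20. Peaks of at least 200 bp gave 198, 5, 163 and 5, and 23 for the last. Joining peaks under 200 bp apart gave 204 for the culture, then 192, 7, 28 and 21. Leaving out each library gave 561 to 1749, 31 to 207, 398 to 1583, 39 to 312, 79 to 729 and 156 to 1293. The order of the patterns then changed. Without G2 replicate 2 the second crossed pattern held 1293 sites, against 561 for the culture and 398 for the replicate number. Without G2 replicate 1 the replicate number held 1583, against 906 for the culture.

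In the summit test, 24 split regions rose and 26 fell. Unscaled summits gave 1347 and 7, quantile normalization 3 and 9, the mean over a region's peaks 47 and 13 (1 and 0 of them among the 24 and 26), and no variance trend, a setting added later, 0 and 0 (527 at an unadjusted p under 0.05 in limma). The replicate block gave 47 that fell, and regions averaging 40 times the background or more gave 14 that fell. Leaving out each library gave 1 to 86 and 6 to 52, with the lone library of a culture assumed to vary like the others. The cause of these moves was not tested. All 8 named calls were lost with the mean over peaks and with no trend. Counts of 2 to 5 of 9 or 10 alternatives lost each call.

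Heights between peaks are not in the lists, so how far a gap fell below the threshold could not be measured, and an open gap does not show closed chromatin.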
